A study of Gallus gallus with 6 samples.

Results

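The data described here are the probe sets that were brighter on each of mix 2 and mix 4 than on either of mix 1 and mix 3, which are 4 arrays of mixed chicken tissues. They were chosen by the measured values themselves: after scaling, the signal of both mix 2 and mix 4 had to lie above that of both mix 1 and mix 3. This held for 6561 of 38439 probe sets (17.1%), and the reverse order held for 7570 (19.7%). With the brightest probe set of each of 13009 named genes it held for 2730 genes (21.0%), with the reverse order for 2252 (17.3%). Being in this class is therefore common, and nothing is read from the class count. The genes described in depth are the 125 (0.961%) in which the dimmer of mix 2 and mix 4 was at least 4-fold brighter than the brighter of mix 1 and mix 3. At that margin 188 probe sets (0.489%) passed, against 7 (0.0182%) in the reverse direction, and 5 genes (0.0384%) passed in reverse. Because the values chose the genes, their differences between the mixes are given as a description, with no test.

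The series holds 6 arrays of total RNA, 1 each of adipose tissue, liver, mix 1, mix 2, mix 3 and mix 4. All came from male Arbor Acres chickens, a meat-type line, aged 49 days, on a corn and soybean diet; the labels' protocols say that 21 tissues were taken at slaughter, at 7 weeks. The labels do not name the tissues in each mix or their shares, and how many birds gave the RNA is not stated. Each group is 1 array, so no spread between replicates can be given for any value below. A mix dilutes each of its tissues by the others, and in bulk RNA fewer cells of a type and less RNA per cell cannot be told apart.

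Signals are the deposited intensities brought to a common level by dividing each array by its own trimmed mean. After this the medians of the 6 arrays lay between 39.9 and 49.9. Values below the pooled median of 45.1 were set to that floor for folds, so a fold against an array at the floor is written as "at least". This applied to 56 of the 125 genes. Of the 6561 chosen probe sets 1925 had both mix 2 and mix 4 at or under the floor, where signals have no order, and 4636 did not. The margin, log2 of that fold, had a median of 2.89 and a maximum of 7.35 among the 125 genes. Over all 13009 genes its median was -0.32.

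The testis makes sperm and androgen through Sertoli, Leydig and germ cells. Sertoli cells nurse the germ cells, seal the tubule with tight junctions and secrete anti-Müllerian hormone and inhibin. Leydig cells, between the tubules, answer luteinizing hormone by moving cholesterol into mitochondria and cutting and oxidising it to androgen, and the adrenal cortex shares the first of these steps. Germ cells protect their genome from transposons with piRNAs and then enter meiosis. The lists of known genes used below were drawn up for these cells and for other tissues that the mixes could hold. Of 131 measured genes on the steroid synthesis, gonadal and adrenal regulator, germ cell, meiosis and Sertoli cell lists together, 62 (47.3%) were in the class and 22 (16.8%) passed the 4-fold margin. The spermatid and sperm list, also of the testis, is not in that pool: with it, 22 of 168 genes (13.1%) passed. On the other 21 lists together, sperm genes included, 165 of 606 measured genes (27.2%) were in the class and 25 (4.13%) passed the margin. Over all genes the shares were 21.0% and 0.961%. The rule and the lists were chosen with earlier results of these data known, so these shares are a description and support nothing further.

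Genes that mark Sertoli cells had some of the widest margins. AMH, anti-Müllerian hormone, gave 9905 in mix 2 and 7377 in mix 4 against 32.7 in mix 1 and 12.0 in mix 3, with 28.4 on adipose and 21.0 on liver. Its margin was at least 163.5-fold, the widest of all 13009 genes with this floor. The order of AMH and CYP17A1 turns with the floor: with a floor at the 25th percentile the margins were 7.82 for AMH and 8.44 for CYP17A1 on the log2 scale. DMRT1, the Z-linked transcription factor that directs male sex determination in birds, gave 3446 in mix 2 and 3286 in mix 4. It lay between 0.8 and 23.6 on the other 4 arrays, so its margin was at least 72.8-fold. CLDN11, a tight-junction protein of the barrier that Sertoli cells form in mammals, gave 4112 in mix 2 and 3967 in mix 4. It was also above the floor in mix 1, at 111.3, and on adipose, at 62.5, while mix 3 gave 44.1 and liver 30.8, and the margin was 35.6-fold. The beta B subunit of inhibin and activin, INHBB, gave 1664 in mix 2, 1625 in mix 4, 55.5 in mix 1 and 42.2 in mix 3, a 29.3-fold margin. INHA, the inhibin alpha subunit, gave 498.6 in mix 2 and 424.3 in mix 4 and at most 20.2 on any other array. In each of these genes mix 2 and mix 4 were far apart from the other 4 arrays and close to each other.

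Of 18 measured genes on the Sertoli cell list 11 were in the class (61.1%), 7 passed the 4-fold margin (38.9%) and 0 lay in reverse order. The shares over all genes were 21.0%, 0.961% and 17.3%. The 7 were AMH, DMRT1, CLDN11, INHBB, NR0B1, INHA and FSHR. The transcription factor SOX9, which acts in Sertoli cells and also in cartilage, was not among them: it gave 317.6 in mix 2 and 290.7 in mix 4, but 581.8 in mix 3. Its relative SOX8 likewise gave 261.1 in mix 2 and 422.5 in mix 4 beside 283.3 in mix 3. Secreted proteins of Sertoli cells that many tissues also make were not in the class either. Clusterin, CLU, gave 1942 in mix 2 and 2172 in mix 4 beside 2265 in mix 3, and transferrin, TF, gave 6923 in mix 3 against 2114 and 2493 in mixes 2 and 4.

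**Figure D1:**
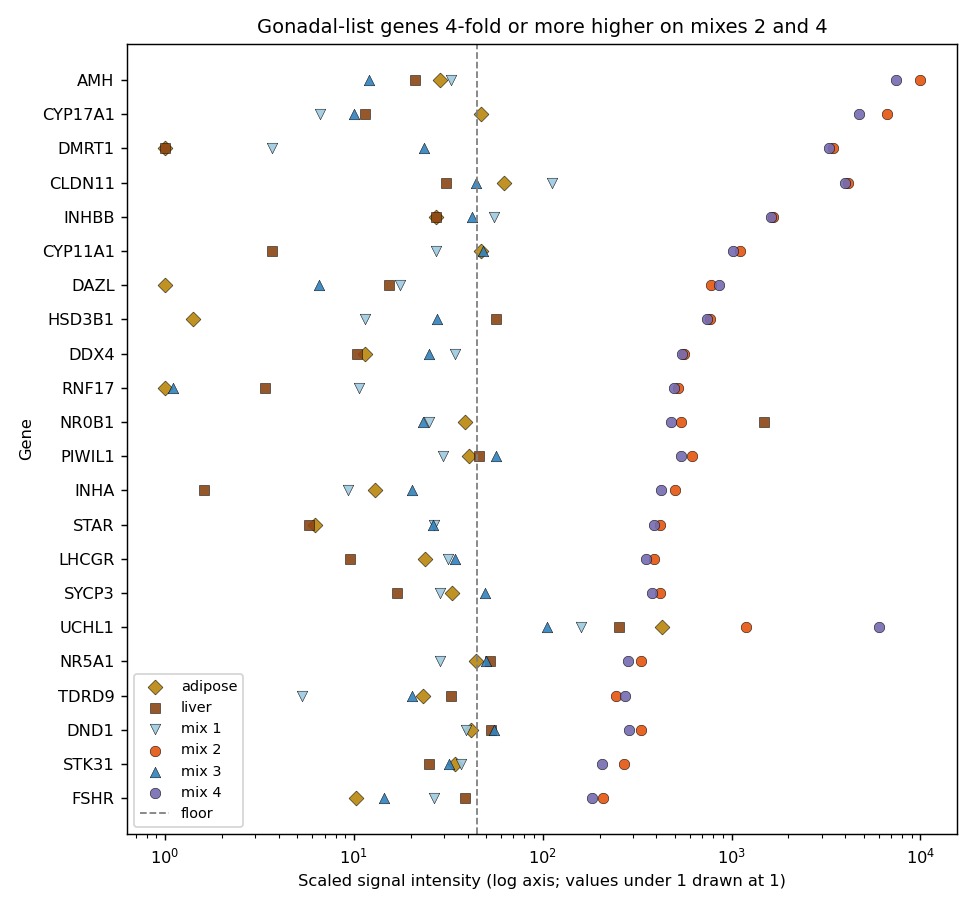
Scaled signal (log axis) of the genes of the 5 gonadal and steroid lists that passed the 4-fold margin, with 1 point for each of the 6 arrays. Mix 2 and mix 4 lie above mix 1 and mix 3 for every gene, by the rule that chose them, and close to each other except for UCHL1; NR0B1 is the gene whose liver point, at 1482.7, lies beyond both.

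Enzymes of the first steps of steroid synthesis followed. CYP17A1, whose hydroxylase and lyase activities open the way to androgens, gave 6661 in mix 2 and 4734 in mix 4. Mix 1 gave 6.6, mix 3 10.0 and liver 11.4, all under the floor, and adipose 47.1, just above it. The margin was at least 104.9-fold, second to AMH with this floor. CYP11A1, which cuts the side chain of cholesterol to make pregnenolone, gave 1112 in mix 2 and 1012 in mix 4, against 27.3 in mix 1, 48.3 in mix 3, 47.1 on adipose and 3.7 on liver. HSD3B1, the dehydrogenase that turns pregnenolone into progesterone, gave 766.5 in mix 2 and 736.6 in mix 4, against 11.4 in mix 1, 27.4 in mix 3, 1.4 on adipose and 56.8 on liver. STAR, which carries cholesterol into the mitochondrion, gave 418.8 in mix 2 and 387.5 in mix 4 and at most 26.4 elsewhere. FDX1B, a ferredoxin that is on none of the lists, gave 955.3 in mix 2 and 979.4 in mix 4 and at most 24.5 elsewhere, a margin of at least 21.2-fold. Ferredoxins pass electrons to mitochondrial P450 enzymes such as CYP11A1.

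These 4 listed enzymes and carriers were the steroid synthesis genes that passed the margin, out of 26 measured. In all 7 of the 26 (26.9%) were in the class and 4 lay in reverse order. Over all genes the shares were 21.0% and 17.3%, so nothing is read from this class count. The other 3 in the class were FDX1, CYP19A1 and SRD5A2. FDX1, the common ferredoxin, gave 667.1 in mix 2, 352.4 in mix 4, 349.7 in mix 1 and 274.5 in mix 3, so mix 4 hardly exceeded mix 1. CYP19A1, the aromatase that makes oestrogen, and SRD5A2, a 5-alpha reductase, were under the floor on every array, at most 38.7 and 36.5. Little signal was seen for the last step to testosterone in mix 2 and mix 4. Whether the probe sets concerned can detect their genes was not tested. HSD17B3, the testicular enzyme of that step in mammals, gave 9.9 in mix 2 and 20.9 in mix 4, and its highest value was 62.2 in mix 3. HSD17B1 and HSD17B2 gave at most 45.4 in those mixes, while HSD17B4, a peroxisomal enzyme of fatty acid oxidation, gave 4060 in mix 2, 1141 in mix 4 and 10715 on liver.

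Genes of the same list with wider use had other patterns. SCARB1, a receptor for lipoprotein cholesterol, was brightest in mix 1, at 1180.4, with 84.6 in mix 2 and 157.4 in mix 4. AKR1D1, the 5-beta reductase of liver, gave 3144 on liver, 861.1 in mix 3 and 736.1 in mix 1, above 79.2 and 261.8 in mixes 2 and 4. POR and CYB5A, electron donors to P450 enzymes, were brightest on liver, at 6082 and 13574. FDXR, the reductase of the ferredoxins, stayed between 56.0 and 66.4 in mixes 1, 2 and 4. TSPO, a mitochondrial membrane protein once linked to cholesterol import, gave 1714.5 in mix 3, above 882.0 and 725.2 in mixes 2 and 4. CYB5B, SOAT1, STARD3, STARD4, HSD17B7, HSD11B1L, SRD5A1 and SRD5A3 had margins between -0.49 and -0.07 on the log2 scale and were not in the class.

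The cholesterol synthesis list held 10 of 21 measured genes in the class (47.6%), 0 in reverse order and 0 past the margin. The shares over all genes were 21.0%, 17.3% and 0.961%. With other scalings 7 to 9 of the 21 were in the class. Widest was ACAT2, an acetyl-transferase that provides the first building block, with 2728 in mix 2, 2138 in mix 4, 610.3 in mix 1 and 322.3 in mix 3, and 12438 on liver. FDFT1, the squalene synthase, gave 1481 in mix 2 and 1838 in mix 4 against 530.8 in mix 1 and 416.0 in mix 3.

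Receptors and regulators of gonad and adrenal were the next group. Of 28 measured genes 14 were in the class, 7 passed the margin and 2 lay in reverse order. For comparison, the shares over all genes were 21.0%, 0.961% and 17.3%. Of the 7, AMH, INHBB, NR0B1, INHA and FSHR are also on the Sertoli cell list and were already counted there. Only LHCGR and NR5A1 were added by this list, so it is not a separate group of genes. LHCGR, the luteinizing hormone receptor of Leydig cells, gave 388.5 in mix 2 and 352.0 in mix 4 and at most 34.4 on the other 4 arrays, a margin of at least 7.80-fold. FSHR, the follicle-stimulating hormone receptor of Sertoli cells, gave 209.6 in mix 2 and 182.3 in mix 4 and at most 38.9 elsewhere, a margin of at least 4.04-fold. NR5A1, the steroidogenic factor that switches on the P450 genes of gonad and adrenal, gave 331.1 in mix 2, 284.1 in mix 4, 28.6 in mix 1 and 50.3 in mix 3. NR0B1, a nuclear receptor that opposes NR5A1, gave 536.8 in mix 2 and 477.6 in mix 4 and at most 24.9 in mixes 1 and 3. Liver exceeded both of them for this gene, with 1482.7.

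LHX9, a homeobox factor needed for the gonadal ridge in mice, gave 163.5 in mix 2 and 238.4 in mix 4 and at most 8.9 elsewhere. Its bound of at least 3.62-fold did not reach the 4-fold rule. GATA4, a factor of gonad and heart, gave 64.3 in mix 2 and 66.3 in mix 4 with 41.2 in mix 1, so it barely stood above the floor. PTCH1, the hedgehog receptor, differed little, with 181.1 and 170.2 in mixes 2 and 4 beside 146.5 and 139.3 in mixes 1 and 3. EMX2, ZFPM2, CITED2 and MRAP2 were in the class with 1 of mix 2 and mix 4 under the floor, so their order is not firm. MC2R, the receptor through which corticotropin drives the adrenal cortex, was under the floor on all 6 arrays, at most 38.7. CYP21A1, the 21-hydroxylase of adrenal steroids, gave 10.8 in mix 2 and 27.4 in mix 4, and its highest value was 47.4 in mix 3. MRAP, the accessory protein of MC2R, was brightest on liver, at 4278, and gave 44.7 and 41.5 in mixes 2 and 4.

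Several regulators named for the gonad or adrenal went another way. INHBA, the beta A subunit, gave 451.7 in mix 3 and 487.5 on liver against 113.3 and 110.5 in mixes 2 and 4. GATA6 gave 1589 in mix 1, TCF21 1198.5 in mix 2 but 136.6 in mix 4, and AGTR1, the angiotensin receptor, 1282 on adipose. DLK1 gave 423.9 in mix 4 and at most 59.2 on each other array. NR0B2, NR5A2, HHIP, PRLR, PDGFRA and RXFP2 had margins of -3.82 to -1.03, and CBX2 was at or under the floor in all 4 mixes.

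Germ cell genes were in the class in 19 of 30 cases (63.3%), with 8 past the margin (26.7%) and 0 in reverse order. The shares over all genes were 21.0%, 0.961% and 17.3%. DAZL, an RNA-binding protein of germ cells, gave 779.3 in mix 2, 855.4 in mix 4, 17.5 in mix 1 and 6.5 in mix 3. DDX4, the helicase known as vasa that marks germ cells, gave 560.0 in mix 2 and 549.4 in mix 4 and at most 34.3 in mixes 1 and 3. Adipose and liver were at or below 15.4 for both genes. PIWIL1, which loads piRNAs, gave 616.1 in mix 2 and 542.7 in mix 4 against 29.5 in mix 1 and 56.6 in mix 3. RNF17, a tudor-domain protein, and TDRD9, a helicase of the piRNA pathway, gave 517.4 and 244.9 in mix 2 and 493.6 and 273.0 in mix 4, with both under the floor on all other arrays. DND1, which protects germ cell messages in fish and mice, gave 331.8 in mix 2 and 287.5 in mix 4 against 39.1 and 55.1 in mixes 1 and 3. All of these had their pair of high arrays within a small factor of each other.

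Dimmer genes of the piRNA pathway showed the same order at lower signal. MOV10L1, the helicase that prepares piRNA precursors in mice, gave 145.3 in mix 2 and 135.7 in mix 4, a margin of at least 3.01-fold. TDRD5, MAEL, TDRD1 and ASZ1 gave 85.5 to 91.7 in mix 2 and 82.8 to 134.0 in mix 4, and at most 5.4 in mixes 1 and 3. With a floor of 45.1 their bounds were at least 1.84-fold to 2.03-fold, so they did not pass. UCHL1, a ubiquitin hydrolase of both germ cells and neurons, behaved unlike the rest: mix 2 gave 1185, mix 4 6034, mix 1 159.5 and mix 3 105.9. KIT and TAF4B gave their highest signals in mix 3, at 806.4 and 370.7.

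Meiosis genes were in the class in 17 of 35 cases (48.6%, against 21.0% over all genes), with 4 in reverse order. Mix 2 or mix 4 was above the floor in 19 of the 35, and signals under it have no firm order. The median difference was 0.00 on the log2 scale for this list and for all genes. SYCP3, of the synaptonemal complex, was the 1 gene to pass the margin by its brightest probe set, with 415.7 in mix 2, 376.6 in mix 4, 28.5 in mix 1 and 49.2 in mix 3. TEX12, STRA8 and SMC1B came next, at 169.0, 167.5 and 148.8 in mix 2 and 178.0, 163.1 and 151.9 in mix 4, each under the floor on the other 4 arrays. STRA8 is the factor through which retinoic acid starts meiosis in mice. HORMAD1, of the chromosome axis, gave 609.8 in mix 2 and 679.3 in mix 4, but also 244.2 in mix 3. A dimmer HORMAD1 probe set passed, with 260.0 in mix 2, 223.6 in mix 4, 17.4 in mix 1 and 17.2 in mix 3, at least 4.95-fold. DMC1 and SPO11, which exchange and break strands at meiotic recombination, stayed at or under 44.6 on every array, as did SYCP1, which gave 20.3 in mix 2 and 6.2 in mix 4.

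Of 37 measured spermatid and sperm genes 12 were in the class (32.4%, against 21.0% over all genes). Of the 37, 0 passed the margin and 5 lay in reverse order. Over all genes those shares were 0.961% and 17.3%, so nothing is read from these counts. ROPN1L, TEKT1, SPAG16 and SPAG17, which flagella share with motile cilia, gave 81.8 to 96.4 in mix 2 and 68.1 to 108.9 in mix 4. Acrosin, ACR, a protease of the sperm head, gave 2.3 in mix 2 and 2.9 in mix 4. ZPBP2, TSSK6 and PLCZ1, other late sperm genes, gave at most 11.1 in mix 2 and were under the floor in mix 4 too. DAZL and DDX4 lay at least 12.2-fold above the floor in both mixes, where these late sperm genes were under it. Over the whole sperm list, mix 2 or mix 4 was above the floor in 21 of the 37 genes, and both were in 14. Whether the probe sets of the late sperm genes under the floor can detect their genes was not tested.

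Cilia genes had a large share in the class, part of it from signals under the floor, but narrow margins. Of 74 measured genes of axoneme and cilia 45 were in the class (60.8%, against 21.0% over all genes). In reverse order lay 3, and 1 passed the margin. That gene was DNAH3, an inner-arm dynein, with 532.7 in mix 2, 413.6 in mix 4, 70.9 in mix 1 and 100.8 in mix 3. CFAP52 and ARMC3 gave 142.7 and 106.1 in mix 2 and 143.7 and 134.9 in mix 4, with the other mixes under the floor. IFT122 and IFT57, which carry cargo along cilia, gave 209.1 and 231.9 in mix 2, and their margins were 1.83-fold each. Mix 2 or mix 4 was above the floor in 43 of the 74 genes. Class members such as CFAP57, with 38.8 in mix 2 and 31.9 in mix 4, had both under it, so their order is not firm. The median difference over the list was 0.05 on the log2 scale, against 0.00 over all genes. The class count was 45 with 3 of the scalings and 51 when the arrays were matched on spike-ins, which raised the count over all genes to 26.2%.

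**Figure D2:**
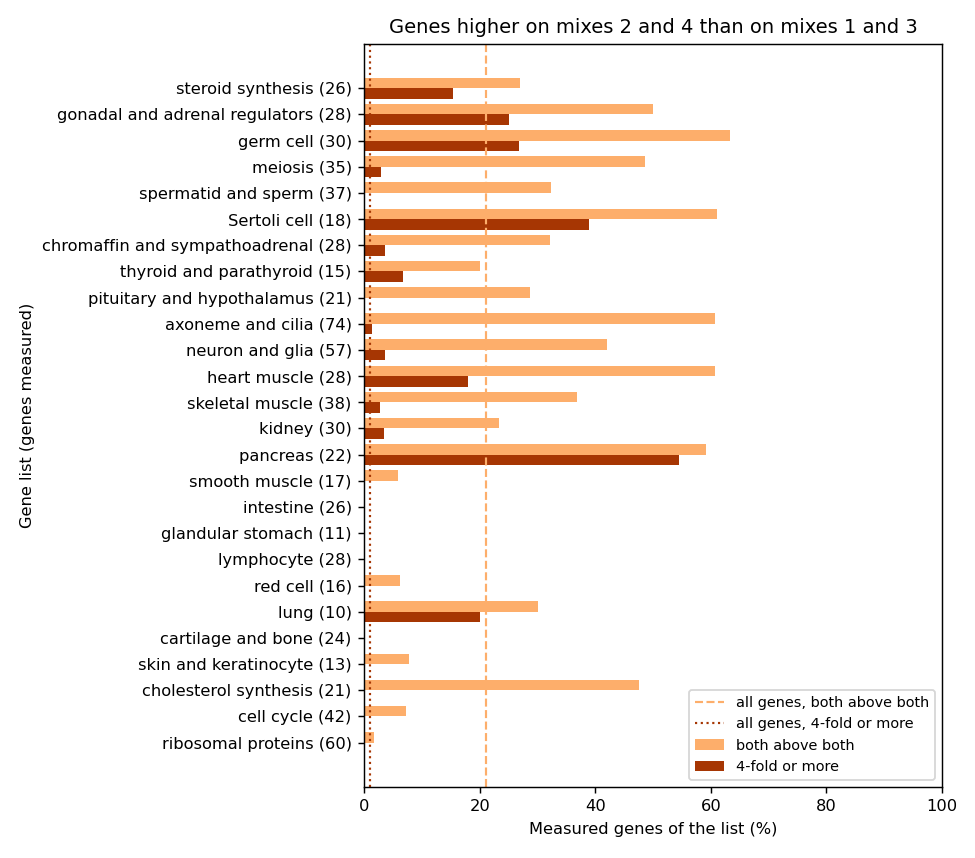
Share of the measured genes of each list (percent) that were in the class (light bars, both mixes above both) and that passed the 4-fold margin (dark bars), with lines for all 13009 genes at 21.0% and 0.961%. The pancreas list has the largest share past the margin (12 of 22), followed by the Sertoli cell list (7 of 18) and the germ cell list (8 of 30).

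The signals of mix 2 and mix 4 were next set against each other. The rule asks that both be high, so their ratio is not independent of it and is given as a description. Of the 125 genes 82 lay within 2-fold, 23 were at least 2-fold brighter in mix 2, and 20 at least 2-fold brighter in mix 4. Of the 22 genes from the 5 gonadal and steroid lists, 21 lay within 2-fold, and UCHL1 was the exception. For these 21 the median log2 ratio of mix 2 to mix 4 was 0.14, the range -0.16 to 0.49 and the SD across genes 0.16, and 18 lay within 0.25 of equal signal. Keeping to genes within 2-fold limits this spread beforehand: the SD was 0.37 for all 82 such genes. With UCHL1 kept, the SD of the 22 was 0.55, against 2.01 for all 125. Mixes 1 and 3 were above the floor in 2 and 5 of the 21 genes, liver in 5 and adipose in 3. The level of the ratio depends on scaling, since the median was -0.25 with the deposited scale, -0.26 with spike-ins and 0.15 with quantiles. Which of the mixes was higher therefore cannot be read from these genes.

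**Figure D3:**
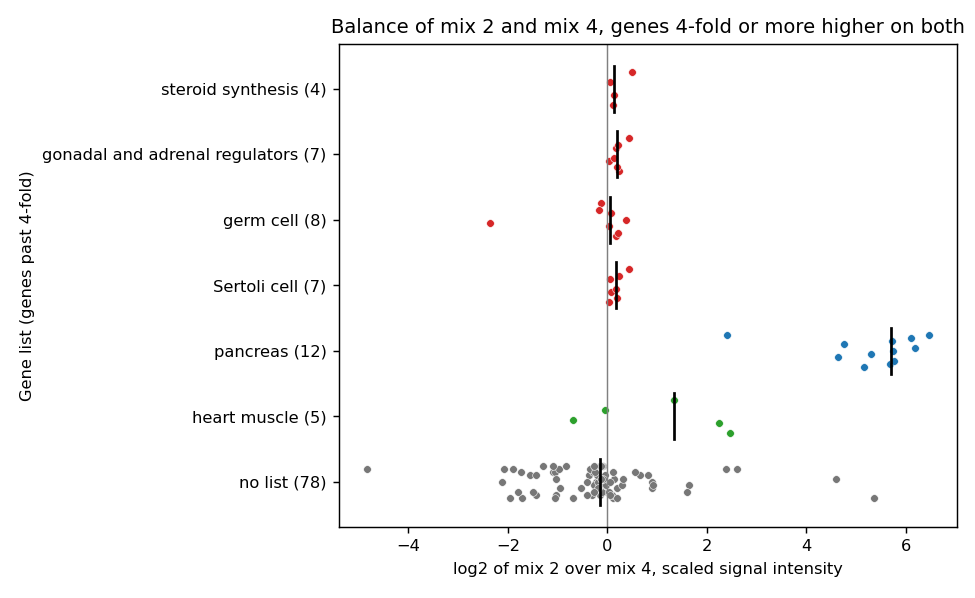
Log2 ratio of mix 2 to mix 4 for genes that passed the 4-fold margin, with 1 point per gene in each of its lists and a bar at the list's median; lists with 4 or more such genes and the 78 genes on no list are shown. Gonadal and steroid genes gather near 0.14 apart from UCHL1 at -2.35, pancreas genes lie between 2.41 and 6.47, and genes on no list spread to both sides.

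Genes on none of the lists made up 78 of the 125, and 53 of these lay within 2-fold between mix 2 and mix 4. Their median log2 ratio was -0.11 with an SD of 0.41, and 31 of the 53 lay within 0.25 of equal signal. LOC770574, an unnamed locus, had a margin of at least 103.9-fold, with 4690 in mix 2, 4947 in mix 4, 9.6 in mix 1 and 27.1 in mix 3. LOC770574 also gave 624.9 on adipose. NELL2, a secreted protein known from neurons, gave 5228 in mix 2 and 6124 in mix 4 but was above the floor on all 6 arrays, with 1162 on liver. SVOPL, a transporter-like protein, gave 973.2 and 897.7 in mixes 2 and 4 and at most 38.4 elsewhere. FRMD3, a FERM-domain protein, gave 2091 and 1950 in mixes 2 and 4 against 52.3 and 112.8 in mixes 1 and 3. RDH11, a retinal reductase, gave 2377 in mix 2 and 2396 in mix 4 with at most 180.0 elsewhere.

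LOC776720, LOC107049264 and PHYHIPL also had some of the 25 widest margins and were on no list. LOC776720 gave 634.2 in mix 2 and 686.3 in mix 4 and at most 5.5 elsewhere. LOC107049264 gave 2129 and 2359 in those mixes but 147.3 and 156.1 in mixes 1 and 3, a 13.6-fold margin. PHYHIPL gave 657.2 and 574.8 and at most 43.8 elsewhere. MGARP, a mitochondrial protein, was unevenly shared, with 787.1 in mix 2 and 1676 in mix 4, and liver at 192.7. ARG2, the mitochondrial arginase, gave 1070 in mix 2 and 603.9 in mix 4, and SLC13A3, a carrier of dicarboxylates in the kidney tubule, 1752 and 562.1.

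Pancreas enzymes formed the most uneven group. Of 22 measured genes 13 were in the class (59.1%) and 12 passed the margin (54.5%), with 1 in reverse order. The shares over all genes were 21.0% in the class and 0.961% past the margin. CPA1, carboxypeptidase A, gave 19929 in mix 2 and 288.3 in mix 4, with 15.1 in mix 1, 26.9 in mix 3, 2.1 on adipose and 12.6 on liver. Trypsin, PRSS2, gave 18136 in mix 2, 727.8 in mix 4, 13.5 in mix 1 and 69.3 in mix 3. The amylase AMY2A was the closest between the pair, with 13912 in mix 2, 2609 in mix 4, 179.7 in mix 1 and 238.4 in mix 3. Mix 2 was the brighter for all 12, by a median of 51.8-fold (log2 5.70, range 2.41 to 6.47), so mix 4 carried a small share of the mix 2 signal. In mix 2 all 12 lay between 13681.5, for CTRC, and 19929, for CPA1. Whether so bright a signal still rises evenly with RNA was not tested, so these folds describe signal only. The 6 highest ratios of the 125 genes were all pancreas enzymes: CEL, PNLIPRP1, CPA1, CELA1, CPB1 and CELA2A, from 6.47 down to 5.72.

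The pancreatic islet hormone genes INS and GCG were also bright in mix 2, but in mix 4 they were under the floor of 45.1. Insulin, INS, gave 6286 in mix 2 and 37.1 in mix 4, and glucagon, GCG, 1433.5 and 19.4. A signal under the floor gives no firm ratio, so no difference in pattern from the enzymes is read from them. CEL, a lipase, was also among the genes nearest to the limit of the 4-fold rule, since mix 4 gave 181.3 while mix 1 and mix 3 were under the floor, a bound of 4.02-fold.

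Plasma proteins of the liver entered the set although the liver array far exceeded them. FGB, the fibrinogen beta chain, gave 4640 in mix 2, 761.6 in mix 4, 28.6 in mix 1 and 46.9 in mix 3, with 21376 on liver. The other fibrinogen chains, FGA and FGG, gave 182.5 and 417.0 in mix 2 and 199.5 and 739.1 in mix 4, with 21896 and 23789 on liver. APOH, a plasma glycoprotein, gave 925.8 and 1193.5 in mixes 2 and 4 and 20509 on liver, and serum albumin, ALB, 2009.5 and 3899 with 22232 on liver. HPX, which binds free haem, gave 721.0 and 793.8 in those mixes and 19196 on liver. FGB was thus brighter in mix 2 and FGG in mix 4, although both are chains of the same protein. LOC396380, which the gene reference also lists as GSTAL3, a glutathione transferase, gave 2590 in mix 2, 2643 in mix 4 and 6067 on liver.

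In all 17 of the 125 genes were brighter on liver than on both mix 2 and mix 4, and 3 on adipose. Over all 13009 genes this held for 3515 on liver and 3262 on adipose, counting signals above the floor, so it was less common among the 125. Those 17 had log2 ratios of mix 2 to mix 4 from -0.96 to 3.01, with an SD of 1.19. Besides the genes above they were AvBD9, SLCO1A2, GAMT, GATM, BHMT2, DIO3, PSAT1, LGALS1B, LCAT and NR0B1. AvBD9, a beta-defensin, gave 2817 in mix 2, 536.1 in mix 4 and 20324 on liver. Its neighbour AvBD10 was not among the 17, since mix 2 gave 15485 beside 13630 on liver, with 643.9 in mix 4. PSAT1, of serine synthesis, gave 2002 in mix 2, 1082 in mix 4 and 13671 on liver, and GATM and GAMT, which make creatine in sequence, gave 3782 and 3599 on liver.

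**Figure D4:**
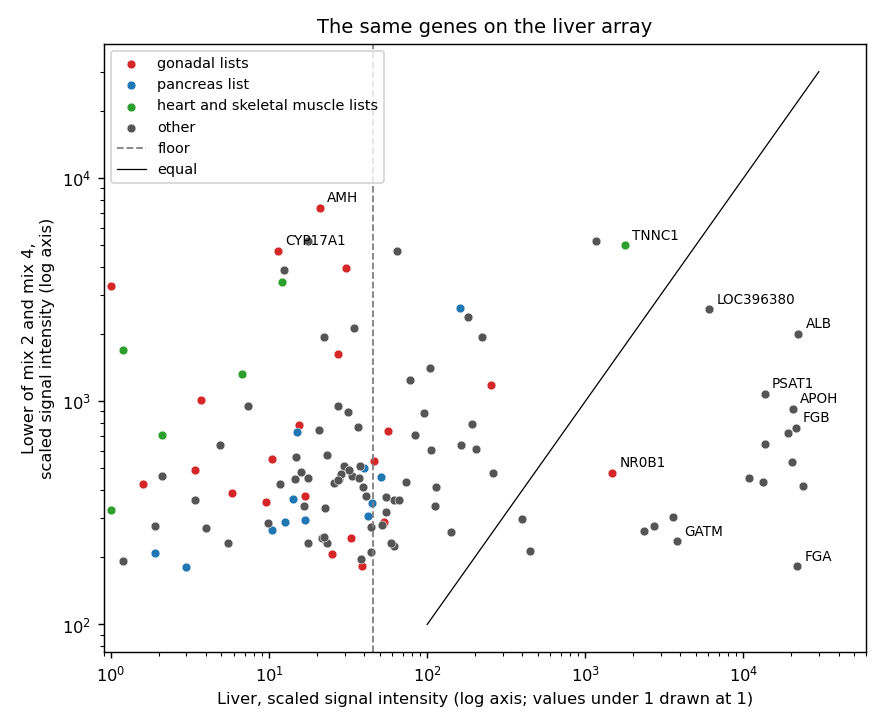
Scaled signal on liver against the lower of the mix 2 and mix 4 signals for the 125 genes (log axes). The 17 genes brighter on liver than on both mixes include the fibrinogen chains, albumin and APOH; the gonadal genes other than NR0B1 and UCHL1 lie near or under the floor of 45.1 on liver.

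The adipose and liver arrays give values that the rule did not use. Of the 125 genes 42 (33.6%) were above the floor on adipose and 51 (40.8%) on liver, and 58 (46.4%) on neither. Over all 13009 genes 69.2% were above it on adipose, 69.5% on liver and 23.2% on neither. Of the 21 gonadal and steroid genes within 2-fold, 13 were above it on neither array.

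The lung surfactant genes were the clearest of those brighter on adipose. SFTPA1 gave 361.7 in mix 2 and 391.1 in mix 4, with 26.1 in mix 1, 16.3 in mix 3 and 1872 on the adipose array. SFTPA2 gave 337.9 and 349.5 in mixes 2 and 4 and 1692 on adipose. LAMP3, AQP5, SLC34A2 and ABCA3, other lung genes, were not in the class. How their signal came to the adipose array was not tested.

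Muscle genes gave a mixed picture. Of 28 measured heart genes 17 were in the class (60.7%, against 21.0% over all genes). The margin was passed by 5 (17.9%, against 0.961%): MYL3, ACTC1, MYOZ2, CSRP3 and TNNC1. ACTC1, cardiac actin, gave 6276 in mix 2, 1326 in mix 4, 130.3 in mix 1 and 107.0 in mix 3. MYOZ2, a protein of the sarcomere's Z disc, was even between the pair, with 703.1 and 725.6. TNNC1, slow troponin C, was brighter in mix 4, at 8048 beside 5005, and it also gave 1107 in mix 3 and 1779 on liver. MYL10, a myosin light chain, passed for the skeletal muscle list, with 7343 in mix 2 and 3414.5 in mix 4. The cardiac genes TNNT2 and MYBPC3 gave 2901 and 1373 in mix 2 and only 13.3 and 29.3 in mix 4.

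Of the 20 genes at least 2-fold brighter in mix 4, UCHL1 alone was on a list. The 6 lowest ratios were those of VSNL1, UCHL1, CRMP1, SERPINI1, TMOD2 and MAP1A, from -4.82 to -1.89. VSNL1, a neuronal calcium sensor, gave 213.6 in mix 2, 6048 in mix 4, 22.6 in mix 1 and 50.4 in mix 3. CRMP1, of axon guidance, gave 474.8 and 2056 in mixes 2 and 4, and SERPINI1, neuroserpin, 430.2 and 1818. Of 57 measured neuron and glia genes 24 were in the class (42.1%, against 21.0% over all genes). ELAVL2 and UCHL1 passed the margin (3.51%, against 0.961%). ELAVL2, an RNA-binding protein of neurons and germ cells, gave 446.8 in mix 2 and 660.5 in mix 4. NEFL, a neurofilament, and CAMK2A, a synaptic kinase, gave 1101 and 3806 in mix 4 but 189.7 and 112.7 in mix 2, and missed the margin.

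**Figure D5:**
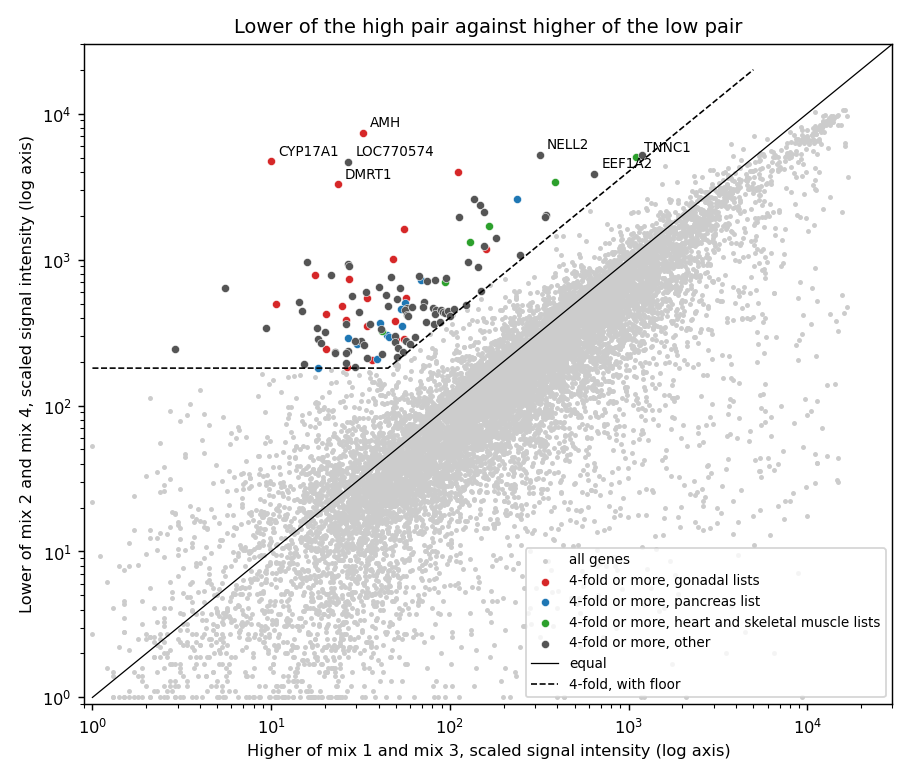
Lower of the mix 2 and mix 4 signals against the higher of the mix 1 and mix 3 signals for all genes (log axes), with the 125 genes past the 4-fold line coloured by list. AMH, CYP17A1, LOC770574 and DMRT1 lie well above the line, and most pancreas genes lie nearer to it, with low mix 4 signals.

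Of 28 measured chromaffin and sympathoadrenal genes 9 were in the class (32.1%), 5 lay in reverse order and 1 passed the margin. Over all genes 21.0% were in the class, 17.3% in reverse order and 0.961% past the margin. PENK, the enkephalin precursor, was the chromaffin gene that passed, with 1171 in mix 2, 769.2 in mix 4, 67.2 in mix 1 and 29.8 in mix 3. SLC6A2, the noradrenaline transporter, was short of it, with 539.1 and 578.8 in mixes 2 and 4 against 68.9 and 149.9. TH and DBH, the enzymes that make noradrenaline, were under the floor on all 6 arrays, at most 27.9 and 28.4. Chromogranin A, CHGA, was brightest in mix 1, at 2917. Among 15 thyroid and parathyroid genes 3 were in the class, and DIO3, which inactivates thyroid hormone, passed the margin with 350.7 in mix 2 and 296.9 in mix 4 but 395.4 on liver. Among 21 pituitary and hypothalamic genes 6 were in the class (28.6%) and 0 passed. Mix 2 or mix 4 was above the floor in 7 of the 21 and both were in 0, so the order of the 6 is not firm. CGA, CRH, GHRH and POMC gave at most 60.6 on any array.

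None of 26 intestine, 11 glandular stomach, 28 lymphocyte and 24 cartilage and bone genes were in the class. The cell cycle list had 3 of 42 with 13 in reverse order. The smooth muscle, red cell and skin lists had 1 of 17, 1 of 16 and 1 of 13 in the class. Over all genes 21.0% were in the class and 17.3% in reverse order. Ribosomal proteins had 1 of 60 with 3 in reverse order, but this count depends on the scaling: 3 were in the class and 35 in reverse order with the deposited scale, 10 in the class with quantiles and 14 with spike-ins. Kidney genes had 7 of 30 in the class, 23.3% against 21.0% over all genes. GATM passed, with 1900 in mix 2 and 236.2 in mix 4. SLC12A1 and LRP2, of the kidney tubule, gave 2432 and 711.6 in mix 2 and 17.8 and 34.3 in mix 4. The 5 genes past the margin in the reverse direction were IFI27L2, GIMAP1-GIMAP5, BARX1, GSTO2 and ENPP3. BARX1, a stomach homeobox factor, gave 896.5 in mix 1, 189.5 in mix 3, 17.9 in mix 2 and 21.4 in mix 4.

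At the limit of the 4-fold rule, SCRN1, CEL and FSHR lay just inside, at 4.01, at least 4.02 and at least 4.04, and probe sets of CENPO, LOC101751709 and SCD5 just outside, at 4.00, 3.99 and 3.98. Other probe sets of a gene did not always show its pattern. For 52 of the 125 genes there were 111 further probe sets, of which 70 were in the class, 20 passed the margin and 7 lay in reverse order. Over all 38439 probe sets the shares were 17.1%, 0.489% and 19.7%. These further probe sets belong to genes that the rule had chosen, so the counts are a description. The second probe sets of CLDN11, HSD3B1 and PIWIL1 passed too, with 905.0, 430.3 and 409.5 in mix 2 and 840.1, 601.6 and 379.9 in mix 4. AMH and DMRT1 were different. A further AMH probe set gave 409.2 in mix 2 and 533.6 in mix 4 beside 271.2 in mix 1, and the other 2 gave at most 27.7 in mix 2. Of the further DMRT1 probe sets 1 gave 268.4 in mix 2 and 137.9 in mix 4, and the others were under the floor on all arrays.

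Some genes of the set were neighbours. No count of such pairs over other genes was made, so nothing is read from their number. All 125 genes were placed by the gene reference, and 5 pairs of them were next to each other on a chromosome: FSHR with LHCGR, AvBD10 with AvBD9, FGB with FGA, FGA with FGG, and SFTPA1 with SFTPA2. Each pair belongs to 1 gene family or 1 protein. FSHR and LHCGR, the gonadotropin receptors, had log2 ratios of mix 2 to mix 4 of 0.20 and 0.14.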

How the data were processed

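Total RNA of 6 chicken samples was measured on Affymetrix arrays. The deposited values are signal intensity on a linear scale, made by the authors with MAS5 per the submitters' processing notes. The MAS5 version and scaling target are not stated. Because the labels' description names adipose for all 6 samples, each title set the group. Of 38535 probe sets 96 controls were left out. Each array was divided by its mean after trimming 2% at each end and multiplied by the mean of the 6 trimmed means. The floor for folds was the pooled median, and signal over it takes the place of depth. Of 27168 probe sets with 1 gene symbol in the platform annotation, 26853 matched the RefSeq gene table by gene number and 315 did not; 177 probe sets with several symbols and 11094 with none were not named. A gene was taken by its probe set with the highest mean over the 6 arrays.

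The rule, its members and the 26 gene lists (1047 genes, 737 measured) were chosen with earlier results of these data known, so no test was made. Named genes were the 25 widest margins, the measured steroid synthesis and regulator genes, up to 6 members of each other list, the 3 nearest genes on each side of the 4-fold rule, the 8 brightest on adipose or liver, the 6 highest and 6 lowest ratios of mix 2 to mix 4, and CYP17A1; other genes, among them list genes outside the class, were chosen after their values were seen. Alternatives were the deposited scale, quantile and spike-in scaling, other floors and folds, a pseudocount, a filter on dim probe sets, the median of a gene's probe sets, and leaving out each mix. Scripts used Python 3.11.15, numpy 2.4.6, pandas 2.3.3 and scipy 1.17.1, and were tested on simulated data.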

Additional observations from a re-analysis of the deposited data

How the results depend on the processing

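The 4-fold set kept its size under other scalings: 126 genes with the deposited scale, 126 with quantiles and 133 with spike-ins, of which 122, 120 and 122 were among the 125. Over probe sets above the floor on any array, with no floor applied to the values, spike-in scaling moved the median log2 difference from -0.04 to 0.18. The floor mattered more. With the floor at the 25th percentile 334 probe sets and 203 genes passed, and at the 75th percentile 59 probe sets, 37 genes and 9 of the 22 gonadal and steroid genes. A 2-fold rule passed 535 probe sets and an 8-fold rule 76. The class held 3878 probe sets when those with a mean under the floor were left out. Without each mix in turn the class held 11085 to 13795 probe sets, the 4-fold rule passed 295 to 915 probe sets and 190 to 511 genes, and the gonadal and steroid genes numbered 22 to 24. A rule on fewer arrays is easier to meet, which by construction can only add members. Without mix 1, 2, 3 and 4 the 4-fold genes numbered 200, 511, 190 and 262. Without mix 2 the neuron list had 35 of them and skeletal muscle 25, and without mix 4 the kidney list had 10 and pancreas 17. The margin of CYP17A1 was 8.44 and 4.70 on the log2 scale with the lower and the higher floor and 7.65 with a pseudocount, and that of AMH was 7.82, 5.34 and 7.32, so CYP17A1 exceeded AMH with the lower floor and the pseudocount. Of 200 values for single genes and lists under settings other than leaving out a mix, 173 stayed within their limits and 27 moved. Of 114 that left out a mix, 93 stayed and 21 moved. Lists with 0 genes past the margin in both settings count among those that stayed. A reversal could be scored only for the margins of CYP17A1 and AMH, so nothing is read from its absence. The ratio of mix 2 to mix 4 has no value without either. No paired analysis was possible because each group has 1 array and the labels give no replicate numbers.

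With 1 array per group no error can be attached to any value, and a signal near the floor has no order. The rule chose genes by the arrays it describes. The cause of these changes was not tested.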
